A study of Mus musculus with 15 samples.

Results

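The set described here is 8 genes of the interleukin-2 (IL-2) receptor pathway in mouse CD8+ T cells: the kinases Jak1 and Jak3, the transcription factors Stat5a and Stat5b, and the feedback inhibitors Cish, Socs1, Socs2 and Socs3. They were taken by name, for their place in the pathway, from a table of raw read counts for 27019 gene symbols. All 8 were among the 16057 genes with enough reads to test. The study sequenced messenger RNA of bead-enriched CD8+ T cells from the spleens of 8 to 10 week old C57BL/6 mice in 4 groups of 2 libraries each. Every group carried the OT-I transgene, a T cell receptor for the ovalbumin peptide OVA257-264, so the controls carried it too. Wild-type (WT) OT-I cells were compared with cells of OT-I mice lacking Susd2 (Susd2-/-). Day 0 cells came from untreated splenocytes and day 3 cells from splenocytes stimulated with that peptide for 3 days. Only day 3 cells had been in culture, so time, culture and peptide cannot be told apart. Whether a group's 2 libraries are 2 animals is not stated, and the p-values therefore reflect library-to-library spread that could be technical only.

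As background, receptors that share the common gamma chain, among them those for IL-2, IL-7 and IL-15, have no kinase activity of their own. Jak1 sits on the ligand-specific chain and Jak3 on the gamma chain; once brought together they phosphorylate the receptor and STAT5, which then enters the nucleus and binds a palindrome with the half-sites TTC and GAA. Cish and the Socs genes are among the targets of STATs, and their proteins bind the receptor or the kinases and dampen the signal, so a cell's SOCS transcripts are often read as a trace of recent cytokine signalling.

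Promoter windows were searched because this palindrome is the sequence STAT5 is known to bind. Those of Cish and Socs3 are printed because only they held a match. The motif TTCNNNGAA, which reads the same on both strands, was searched in RefSeq promoter windows of the GRCm38.p6 build, from 250 bases before to 50 bases after a start. Windows were found for 7 of the 8 genes (Stat5a and Stat5b with 2 each), and Socs2 had no entry. Cish held 2 matches and Socs3 held 1, whereas the windows of Jak1, Jak3, Stat5a, Stat5b and Socs1 held none. Of all 32851 windows, 8.30% held the motif at least once and 0.457% held it 2 or more times. The same half-sites with 4 unspecified bases between them, a form found in 6.95% of all windows, were in no window of the 7 genes. The sequences below run 5′ to 3′ on the gene's own strand, with the RefSeq start at base 251 and the matches in capitals. The Cish stretch is chr9:107296409-107296688 on the plus strand and the Socs3 stretch is chr11:117969337-117969616 on the minus strand.
Cish: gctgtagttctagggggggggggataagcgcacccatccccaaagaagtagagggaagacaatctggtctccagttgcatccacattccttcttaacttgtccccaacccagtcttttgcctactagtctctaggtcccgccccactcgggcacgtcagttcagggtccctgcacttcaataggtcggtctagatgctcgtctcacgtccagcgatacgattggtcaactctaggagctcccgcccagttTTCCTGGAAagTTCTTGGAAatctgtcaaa
Socs3: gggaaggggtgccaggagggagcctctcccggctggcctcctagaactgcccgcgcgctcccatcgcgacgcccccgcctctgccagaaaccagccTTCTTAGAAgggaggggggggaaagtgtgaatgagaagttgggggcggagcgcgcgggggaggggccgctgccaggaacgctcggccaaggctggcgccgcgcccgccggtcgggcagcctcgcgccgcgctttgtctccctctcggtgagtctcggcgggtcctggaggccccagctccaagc
The 2 Cish matches, TTCCTGGAA at bases 251 to 259 and TTCTTGGAA at bases 262 to 270, lay side by side at the start. The Socs3 match, TTCTTAGAA, lay at bases 97 to 105. A match describes letters in a window, and binding was not measured here.

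In the GENCODE M21 annotation of GRCm38, Jak1 lies at chr4:101152367-101265282 (minus strand), Jak3 at chr8:71676296-71690575 (plus), Cish at chr9:107296026-107302784 (plus), Socs1 at chr16:10782240-10785536 (minus) and Socs2 at chr10:95385362-95417180 (minus). Stat5a, Stat5b and Socs3 share chromosome 11: Stat5b at chr11:100780731-100850724 (minus), Stat5a at chr11:100859351-100885169 (plus) and Socs3 at chr11:117966079-117970047 (minus). The Cish and Socs3 stretches printed above lie wholly inside these gene bounds. Their RefSeq starts are thus downstream of the outermost GENCODE 5′ ends, and the sequence before those ends was not searched. Stat5a and Stat5b are neighbouring paralogs; 3.44% of the stretches of 100 bases in the Stat5a exons and 4.79% of those in the Stat5b exons occur in the other gene, so a small part of their reads is uncertain. Jak3 shares 404 exon bases with Insl3 on the same strand, which had 253 reads in WT day 0 beside 11771 for Jak3. The opposite strand of Cish carries the pseudogene Gm17040, which had 73 reads in WT day 3 beside 7348 for Cish. On the opposite strand Stat5a shares 72 exon bases with Stat3, which had 13800 reads in WT day 0 and 29863 in WT day 3, beside 3829 and 7610 for Stat5a; reads of that shared stretch could go to either gene if strand was not used. The library kit keeps strand, but the strand setting used in counting is not given in the sources used here.

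Levels are given as CPM (counts scaled to a common library total, here the total adjusted by edgeR's TMM factors). To compare genes with each other, CPM was divided by exon length in kilobases (CPM per kb). In WT day 0 the order was Jak1 at 167 ± 1.28 CPM per kb (SD, n = 2), Socs3 at 48.4 ± 2.56, Jak3 at 35.9 ± 1.00, Stat5b at 30.4 ± 0.698, Stat5a at 8.77 ± 0.477, Socs1 at 8.25 ± 0.0587, Cish at 1.01 ± 0.121 and Socs2 at 0.0818 ± 0.0415. No neighbours in that order overlapped between libraries, though Stat5a and Socs1 lay within 1.06-fold of each other. Jak1 ranked 239th from the top among 15737 genes with an exon length, and 7.13% of those genes had a lower level than Socs2.

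In WT day 3 the scale was far more compressed. Jak1 stood at 40.1 ± 0.0909 CPM per kb and Jak3 at 38.4 ± 4.01, and their libraries overlapped. Stat5b followed at 29.3 ± 1.60, then Cish at 19.3 ± 0.185 and Stat5a at 18.0 ± 0.699. Socs1 at 9.91 ± 2.32 and Socs3 at 8.32 ± 0.0829 overlapped, and Socs2 was again the lowest at 6.39 ± 0.240. In Susd2-/- cells the order of the means was that of WT apart from Jak3 (39.6 ± 0.986 CPM per kb) and Socs3 (39.4 ± 0.639) at day 0, which overlapped. At day 3 Socs3 (7.35 ± 1.68) and Socs2 (6.80 ± 0.277) overlapped as well. The plot of levels shows all 8 libraries for each gene.

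**Figure D1:**
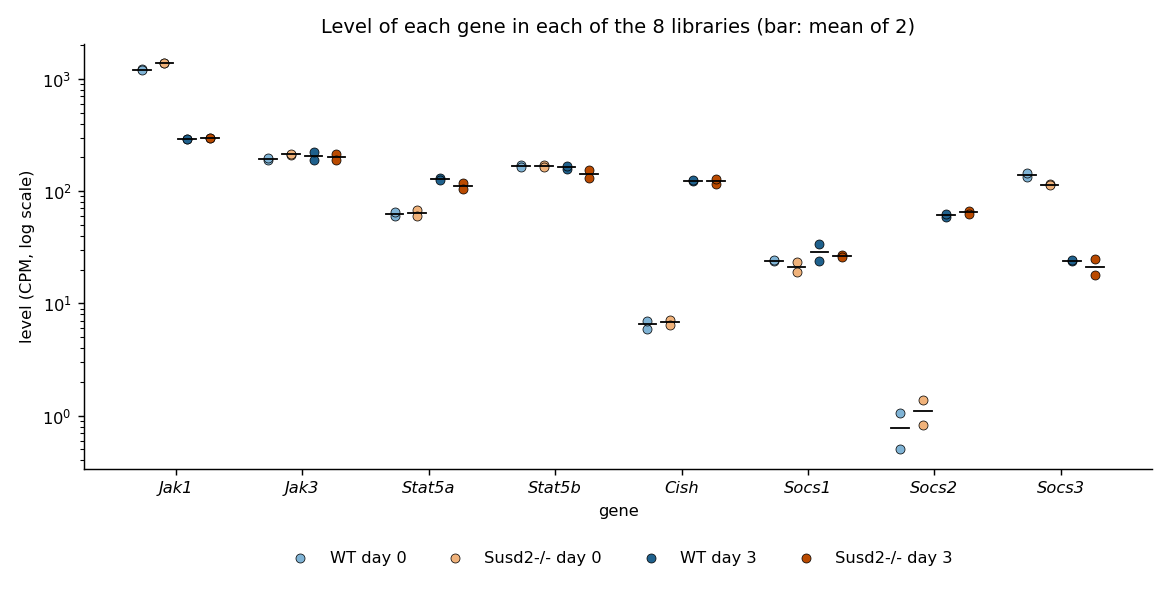
Level of each of the 8 genes (x axis) in CPM on a log axis (y axis); each point is 1 library, coloured by group, and the black bar is the mean of the 2 libraries of a group. Jak1 and Socs3 sit lower at day 3, Cish and Socs2 far higher, and Jak3, Stat5b and Socs1 near their day 0 level.

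Library totals ran from 26829807 to 53846911 reads, and day 3 libraries of a group differed more from each other (common biological coefficient of variation 10.2%) than day 0 libraries did (5.38%). Susd2 had 90 and 80 reads in the WT day 0 libraries against 1 and 3 in Susd2-/- (adjusted p = 2.32e-05, edgeR quasi-likelihood test), and 16 and 10 against 0 and 2 at day 3 (adjusted p = 0.112). The list for CD8 T cell identity held Cd8a, Cd8b1, Cd3e, Cd3d, Cd3g, Trac, Cd247, Lck, Cd2 and Cd5. These 10 genes summed to 5549 to 5559 CPM in WT day 0 and 4934 to 5217 in Susd2-/- day 0. At day 3 the sums were 3187 to 3358 in WT and 3080 to 3165 in Susd2-/-. Cd8a led at 719 to 1256 CPM. Of the 10, 5 were called lower and 0 higher in Susd2-/- at day 0, beside 12.1% and 11.5% of all tested genes. By day 3, 8 fell and 2 rose in WT, and 8 fell and 1 rose in Susd2-/-. Among all tested genes, 39% fell and 36.2% rose in WT, and 39.7% and 36.7% in Susd2-/-. At day 0 the sum of 12 macrophage and monocyte markers, led by Apoe, was 88.8 to 89.0 CPM in WT and 172 to 188 in Susd2-/-, and that of 14 immediate early and stress genes was 2257 to 2284 and 4328 to 4709. At day 3 the macrophage sum was 11.2 to 15.4 CPM in both genotypes, with Vcam1, Adgre1, C1qa, C1qc and Spic at 0 in both. Day 0 sums of 10 B cell markers, nearly all Ighm, were 509 to 518 CPM in WT and 582 to 646 in Susd2-/-; those of 6 NK cell markers were 37.3 to 39.7 and 20.4 to 23.6, and those of 5 plasma cell markers 34.0 to 35.8 and 7.21 to 8.58. In bulk libraries such as these, fewer cells of a type and less RNA per cell cannot be told apart.

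The kinases were compared first between day 3 and day 0. Jak1 fell more than 4-fold in both genotypes while Jak3 passed the test in neither, so the pair moved from a several-fold difference to near parity. Jak1 in WT had 1215 and 1202 CPM at day 0 and 290 and 289 at day 3, and in Susd2-/- 1376 and 1372 CPM against 296 and 294. Day 0 and day 3 libraries were far apart in both genotypes. The WT fall was 4.17-fold (log2 change -2.06 ± 0.0576 SE, adjusted p = 1.15e-16, edgeR quasi-likelihood test) and the Susd2-/- fall 4.66-fold (-2.22 ± 0.0578, adjusted p = 4.53e-17). Among all genes, 16.6% in WT and 16.2% in Susd2-/- had a log2 change at least as low.

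Jak3, the kinase specific to the gamma chain, had 188.5 and 196.1 CPM in WT day 0 and 190.5 and 220.9 in WT day 3. Susd2-/- libraries held 208 and 216 CPM at day 0 and 212 and 188.5 at day 3, so the days overlapped in both genotypes. Its log2 change was 0.10 in WT (95% interval -0.06 to 0.26, adjusted p = 0.246) and -0.08 in Susd2-/- (-0.24 to 0.08, adjusted p = 0.330); without WT day 3 library 1 the WT value was 0.20 and passed (adjusted p = 0.0256). The ratio of Jak1 to Jak3, per kb, went from 4.66 ± 0.166 (SD, n = 2) in WT day 0 to 1.05 ± 0.112 in WT day 3, and from 4.80 ± 0.127 to 1.09 ± 0.0880 in Susd2-/-.

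The STAT5 paralogs also changed differently with time. Stat5a rose 2.05-fold in WT and 1.74-fold in Susd2-/-, whereas Stat5b did not pass the test in WT and fell 1.17-fold in Susd2-/-; the difference between genotypes passed the interaction test for neither gene (adjusted p = 0.193 and 0.323, edgeR). Stat5a had 60.2 and 65.0 CPM in WT day 0 and 132 and 125 in WT day 3; in Susd2-/- it had 67.8 and 60.1 CPM and then 119 and 104. Every day 3 library lay above every day 0 library. The log2 change was 1.04 ± 0.0818 (SE) in WT (adjusted p = 8.38e-10) and 0.80 ± 0.0814 in Susd2-/- (adjusted p = 3.58e-08), both by edgeR's quasi-likelihood test.

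Stat5b had 171 and 165.5 CPM in WT day 0 and 156 and 169 in WT day 3, and the days overlapped (log2 change -0.05, 95% interval -0.21 to 0.11, adjusted p = 0.547). In Susd2-/- it had 170 and 164 CPM at day 0 and 155 and 131 at day 3, with no overlap (log2 change -0.22 ± 0.0747 SE, adjusted p = 0.0119, edgeR). That fall rested much on day 3 library 2, the lower one: without it the log2 change was -0.09 (adjusted p = 0.320), and the call was also lost without library 3 of either day 0 group (adjusted p = 0.0936 without the WT library and 0.206 without the Susd2-/- library), with no filter on low counts (0.127) and with the day 0 libraries of a group counted as 1 (0.0592). Per kb, Stat5b exceeded Stat5a 3.47-fold ± 0.268 (SD, n = 2) in WT day 0 and 3.37-fold ± 0.202 in Susd2-/- day 0, against 1.63-fold ± 0.152 and 1.65-fold ± 0.0359 at day 3. Stat5b remained the more abundant of the pair in all 8 libraries, where the ratio ranged from 1.52 to 3.66.

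The 4 feedback inhibitors did not move as a block. Cish and Socs2 rose many-fold by day 3, Socs3 fell more than 5-fold, and Socs1 stayed short of the test in both genotypes. Cish, whose protein binds activated cytokine receptors and hinders STAT5 docking, had 5.94 and 7.04 CPM in WT day 0 against 123 and 125 in WT day 3, and 7.06 and 6.46 against 116 and 127 in Susd2-/-. The days were wide apart and the genotypes overlapped at each day. The rise was 19.2-fold in WT (log2 change 4.26 ± 0.0974 SE, adjusted p = 7.25e-18, edgeR) and 18.0-fold in Susd2-/- (4.17 ± 0.0967, adjusted p = 9.19e-18).

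Socs2, an inhibitor best known from growth hormone signalling, was close to silent at day 0. It had 16 and 31 reads in the WT day 0 libraries (0.50 and 1.06 CPM) and 26 and 40 in Susd2-/- (0.823 and 1.37 CPM), against 59.3 and 62.5 CPM in WT day 3 and 66.6 and 62.9 in Susd2-/- day 3. Its day 0 libraries differed from each other by more, in proportion, than those of the other 7 genes, and the lanes of a library by up to 1.66-fold, against 1.45-fold for Cish and 1.04-fold for Jak1. The rise was 78.9-fold in WT (95% interval 59.2 to 105, log2 change 6.30 ± 0.195 SE, adjusted p = 8.53e-15, edgeR) and 59.4-fold in Susd2-/- (45.3 to 77.9, log2 change 5.89 ± 0.185, adjusted p = 9.86e-15). The day 0 level rests on few reads, and the WT log2 change was 6.92 without WT day 0 library 4 and 5.86 without library 3. Of all genes, 1.41% in WT and 1.33% in Susd2-/- had a log2 change at least as high as Socs2, and 3.16% and 2.53% at least as high as Cish.

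Socs3, the inhibitor of gp130-type cytokine signalling, moved the other way. It had 135 and 145 CPM in WT day 0 and 23.9 and 24.2 in WT day 3, and in Susd2-/- 115 and 113 CPM and then 24.7 and 17.8. Every day 0 library lay above every day 3 library. The fall was 5.82-fold in WT (log2 change -2.54 ± 0.119 SE, adjusted p = 4.27e-10, edgeR) and 5.43-fold in Susd2-/- (-2.44 ± 0.118, adjusted p = 5.98e-10). Of all genes, 12.6% in WT and 14.2% in Susd2-/- had a log2 change at least as low. Of the 14 immediate early genes 8 fell and 3 rose in WT, and 12 fell and 2 rose in Susd2-/-. The 12 macrophage markers fell in 11 cases in WT and 12 in Susd2-/-. Among all tested genes, 39% fell and 36.2% rose in WT, and 39.7% and 36.7% in Susd2-/-. The part of the immediate early genes or macrophage markers in the Socs3 difference was not tested.

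Socs1, which inhibits JAK kinases directly, had 23.9 and 24.1 CPM in WT day 0 and 24.0 and 33.6 in WT day 3. In Susd2-/- it had 23.2 and 19.1 CPM at day 0 and 26.9 and 25.6 at day 3. The days overlapped in WT and were apart in Susd2-/-. The log2 change was 0.26 in WT (95% interval -0.03 to 0.56, adjusted p = 0.100, edgeR) and 0.31 in Susd2-/- (0.01 to 0.61, adjusted p = 0.0531). The WT difference came from library 2: without library 1 of WT day 3 the log2 change was 0.49 (adjusted p = 0.00127). The Susd2-/- value passed under 9 of 15 alternatives, among them limma voom (adjusted p = 0.0482), RLE size factors (0.0460) and no filter on low counts (0.00425).

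In all, 5 of the 8 genes passed in WT between the days, 3 higher and 2 lower, and 6 of 8 in Susd2-/-, 3 higher and 3 lower. These counts stand against a background of 75.2% of all tested genes in WT (36.2% higher and 39% lower) and 76.4% in Susd2-/- (36.7% higher and 39.7% lower), so a call on its own is not particular to the set. Changes of at least 4-fold were rarer: 10.8% of all genes rose and 16.2% fell that far in WT, and 10.9% and 17.6% in Susd2-/-. In both genotypes Cish and Socs2 were among the former and Jak1 and Socs3 among the latter. The median log2 change over all genes was -0.14 in WT and -0.12 in Susd2-/-. The comparisons between days share no library with each other, but each shares its libraries with the comparisons between genotypes.

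**Figure D2:**
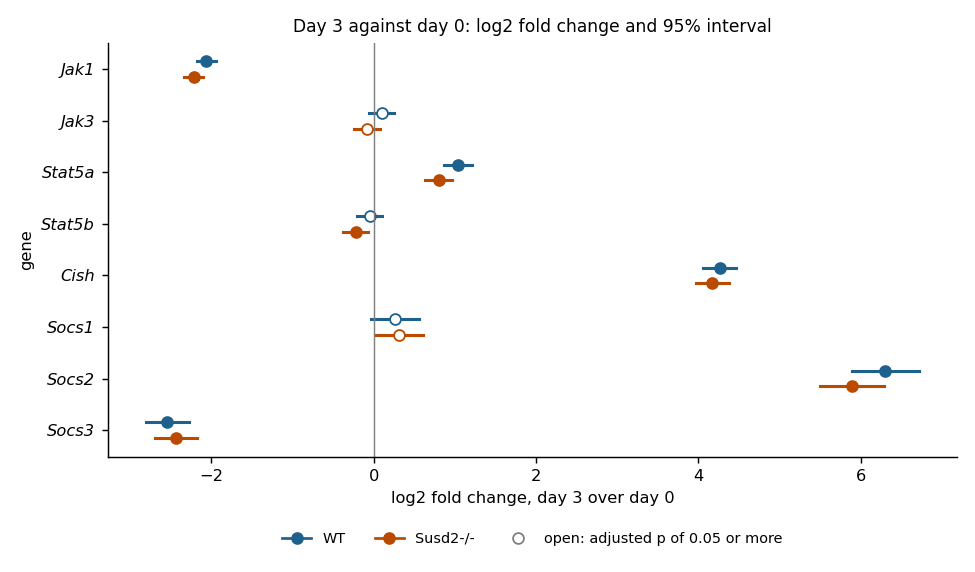
Log2 fold change of each gene (y axis) from day 0 to day 3 (x axis) in WT and Susd2-/-; points are edgeR estimates, lines their 95% intervals, and open points have an adjusted p of 0.05 or more. Socs2 (6.30 and 5.89) and Cish (4.26 and 4.17) lie far to the right, Jak1 and Socs3 to the left, and Jak3 and Socs1 near 0.

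**Figure D3:**
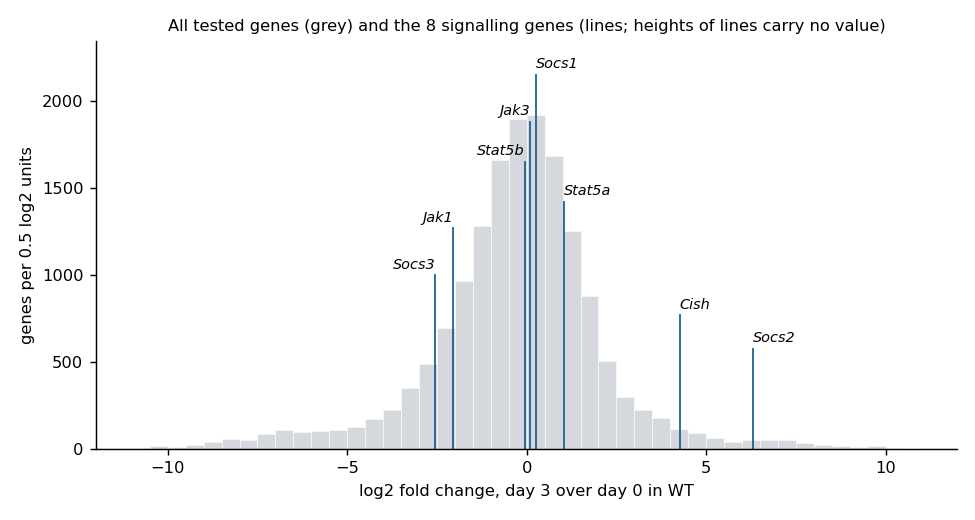
Number of tested genes (y axis, grey) by log2 fold change from day 0 to day 3 in WT (x axis), with a line at the value of each of the 8 genes; the heights of the lines carry no value. Socs2 and Cish stand in the upper tail and the others within the bulk of the 16057 genes.

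The make-up of the SOCS transcripts turned over between the days. Per kb, Socs3 supplied 83.8% ± 0.396 (SD, n = 2) of the 4 inhibitors' summed level in WT day 0 and 82.4% ± 1.53 in Susd2-/- day 0, against 19.0% ± 1.03 and 17.4% ± 3.55 at day 3. Cish went from 1.75% ± 0.126 to 44.1% ± 2.42 in WT and from 2.20% ± 0.0607 to 45.1% ± 4.01 in Susd2-/-, and became the largest share. Socs2 went from 0.140% ± 0.0651 to 14.6% ± 0.392 in WT and from 0.242% ± 0.0928 to 16.1% ± 0.245 in Susd2-/-. Socs1 held 14.3% ± 0.587 and 22.4% ± 3.84 in WT at the respective days, and 15.2% ± 1.57 and 21.4% ± 0.215 in Susd2-/-. The summed level was 57.7 ± 2.78 CPM per kb in WT day 0 and 44.0 ± 2.83 in WT day 3, and 47.9 ± 1.67 and 42.2 ± 1.08 in Susd2-/-; every day 3 library lay below every day 0 library. In plain CPM, where longer genes count for more, the sum was 171 ± 8.73 and 238 ± 10.5 in WT, and 143 ± 4.80 and 234 ± 0.703 in Susd2-/-. These shares are descriptions that follow from the same counts as the tests above.

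**Figure D4:**
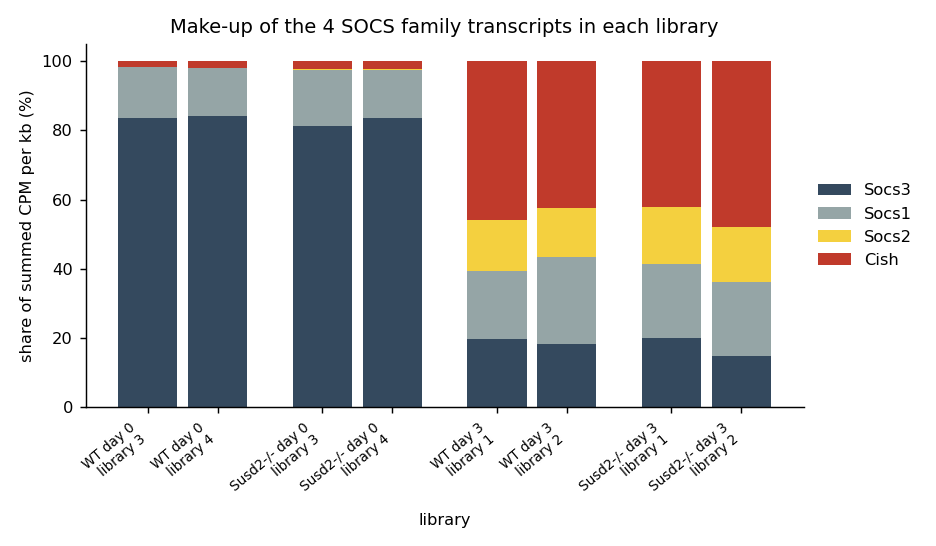
Share of the summed CPM per kb of the 4 SOCS family genes (y axis, percent) held by each gene in each of the 8 libraries (x axis). Socs3 fills over 80% of every day 0 bar, and Cish is the largest share in every day 3 bar, from 42.2% to 47.9%.

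Loss of Susd2 was then compared with WT at day 0. Jak1 was the only one of the 8 genes that passed the test, and its level was 1.14-fold higher in Susd2-/- cells. With 1 of 8 called, the set stood against 23.6% of all tested genes (11.5% higher and 12.1% lower). Jak1 had 1376 and 1372 CPM in Susd2-/- and 1215 and 1202 in WT, so the groups were apart and each was tight. The log2 difference was 0.18 ± 0.0552 SE (95% interval 0.07 to 0.30, adjusted p = 0.0199, edgeR). Over 16 alternatives the adjusted p ranged from 0.00073 to 0.360. The call was lost in 8 of them: without WT day 0 library 3 (0.301) or 4 (0.212), Susd2-/- day 0 library 3 (0.232) or 4 (0.0723), WT day 3 library 1 (0.0504) or 2 (0.0584), with no filter on low counts (0.145) and with the day 0 libraries of a group counted as 1 (0.360).

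Socs3 was the other gene near the threshold at day 0. It was lower in Susd2-/- (115 and 113 CPM) than in WT (135 and 145 CPM), with no overlap, but the log2 difference of -0.29 ± 0.108 SE (95% interval -0.53 to -0.06) had an adjusted p of 0.0699 by edgeR. It passed under 8 of 16 alternatives, with adjusted p from 1.59e-05 in a fit of the day 0 libraries alone to 0.508 with the day 0 libraries of a group counted as 1. The immediate early sum that was about 2-fold apart at day 0 went the other way, higher in Susd2-/-. Called higher were 11 of its 14 genes and 8 of 12 macrophage markers, beside 11.5% of all tested genes. The part of these transcripts in the Jak1 and Socs3 differences was not tested.

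The other 6 genes gave no call at day 0. Jak3 was 208 and 216 CPM in Susd2-/- against 188.5 and 196.1 in WT, apart but not past the test (log2 difference 0.14, 95% interval -0.02 to 0.30, adjusted p = 0.197); a fit of the day 0 libraries alone called it (0.0248). Stat5a (0.03, -0.14 to 0.21) and Stat5b (-0.01, -0.17 to 0.15) had narrow intervals around 0. Cish differed by 0.06 (-0.18 to 0.30) and Socs1 by -0.18 (-0.48 to 0.12). Socs2, with 16 to 40 reads a library, differed by 0.50, with an interval of -0.18 to 1.17. That value moved with single libraries, to 0.022 without WT day 0 library 3 and 0.10 without Susd2-/- day 0 library 4, and to 1.103 without WT day 0 library 4 (adjusted p = 0.0543) and 0.82 without Susd2-/- day 0 library 3.

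After 3 days of stimulation, none of the 8 genes passed the test between genotypes (edgeR), against a background of 0.137% of all tested genes. Neither DESeq2 nor limma voom called any. At an unadjusted p under 0.05, which 7.89% of all tested genes reached in this comparison, there were 2, Stat5a and Stat5b, with lower values in Susd2-/-. Stat5a had 119 and 104 CPM in Susd2-/- and 132 and 125 in WT, apart but close (log2 difference -0.21, 95% interval -0.37 to -0.04, adjusted p = 0.509). Stat5b had 155 and 131 CPM against 156 and 169, again just apart (-0.18, -0.34 to -0.03, adjusted p = 0.551).

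Library 1 of Susd2-/- day 3 mattered for both Stat5b and Socs3. Without it, the Stat5b log2 difference was -0.31 (adjusted p = 0.0307) and that of Socs3 was -0.43 (adjusted p = 0.0117), against -0.19 (95% interval -0.46 to 0.07, adjusted p = 0.759) with all libraries. Without library 2 of that group Socs3 was at 0.04. The remaining log2 differences were 0.03 for Jak1 (-0.09 to 0.14), -0.04 for Jak3 (-0.20 to 0.12), -0.03 for Cish (-0.19 to 0.14), -0.13 for Socs1 (-0.43 to 0.16) and 0.09 for Socs2 (-0.17 to 0.34). For Jak1, Jak3 and Cish these intervals all lay between -0.20 and 0.14, while that of Socs3 reached down to 0.726-fold of WT. The intervals rest on 1 spread estimate per gene shared by both days. Because day 3 libraries differed more than day 0 libraries (common coefficient of variation 10.2% against 5.38%), day 3 intervals may be too narrow.

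**Figure D5:**
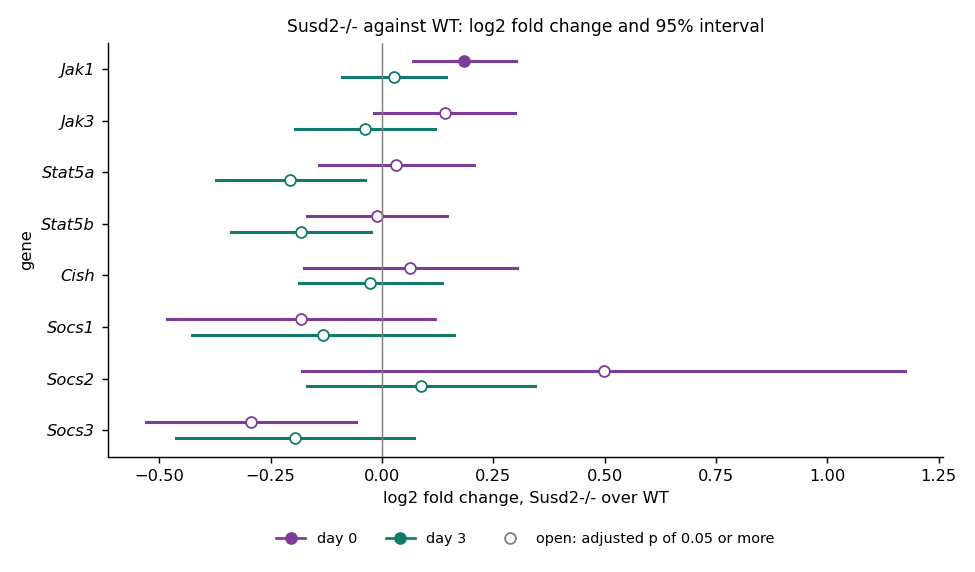
Log2 fold change of each gene (y axis) in Susd2-/- over WT (x axis) at day 0 and at day 3; points are edgeR estimates, lines their 95% intervals, and open points have an adjusted p of 0.05 or more. The single filled point is Jak1 at day 0 (0.18), and Socs2 at day 0 has the widest interval, from -0.18 to 1.17.

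Whether the genotype difference itself changed between the days was tested by an interaction term, which called none of the 8 genes against 13.5% of all tested genes (edgeR, with DESeq2 and limma voom also at 0; none had an unadjusted p under 0.05, against 26.8% of all genes). The values nearest the threshold were those of Stat5a, whose genotype difference was 0.24 lower at day 3 than at day 0 on the log2 scale (95% interval of the signed value -0.48 to 0.003, adjusted p = 0.193), and Jak1 (-0.16, -0.32 to 0.01, adjusted p = 0.207). Cish (-0.09, -0.38 to 0.20), Socs1 (0.05, -0.37 to 0.47) and Socs3 (0.10, -0.26 to 0.46) had intervals on both sides of 0, and that of Socs2 was the widest (-0.41, -1.13 to 0.31). Stat5b was at -0.17 (-0.39 to 0.05, adjusted p = 0.323); without Susd2-/- day 3 library 1 it passed (-0.30, adjusted p = 0.0454), and without library 2 of that group it was at -0.044 (adjusted p = 0.876).

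For each gene, those most alike in pattern over the 8 libraries were found among 10073 genes by the root mean square difference of centred log2 CPM. For Jak1 they were Snx30 (0.05) and Vamp2 (0.05), for Jak3 Trim25 (0.05) and Arfgap1 (0.05), and for Stat5a Mrfap1 (0.06) and Wdr46 (0.06). Stat5b was nearest to Smarcc2 (0.05) and Stx6 (0.05), and Socs1 to Dnpep (0.06) and Trappc6a (0.08). The genes that moved most had looser matches: Cish was nearest to Tk1 (0.08), a thymidine kinase of dividing cells, Socs3 to L1cam (0.12) and Il17ra (0.13), and Socs2 to Cpd (0.20) and Tnfrsf4 (0.29), the receptor OX40. These are likenesses of level across libraries that share day and genotype, and nothing more.

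Other genes of the pathway give the setting of the 8. Among the other 7 JAK and STAT genes, 2 rose and 4 fell by day 3 in WT and 2 rose and 3 fell in Susd2-/-. Their median log2 changes were -0.37 and -0.42. Shares of all tested genes were 36.2% higher and 39% lower in WT, and 36.7% and 39.7% in Susd2-/-. Jak2 went from 171 ± 4.7 to 81.6 ± 1.5 CPM in WT (log2 change -1.07, adjusted p = 1.02e-11, edgeR), in the direction of Jak1, and Stat3 from 225 ± 2.1 to 505 ± 29 (1.17, adjusted p = 1.65e-12), in that of Stat5a. At day 0, Stat4 was lower in Susd2-/- (76.6 ± 1.5 against 95.3 ± 0.19 CPM, log2 difference -0.32, adjusted p = 0.0044, edgeR). Stat6 was higher (321 ± 4.9 against 268 ± 1.8 CPM, 0.26, adjusted p = 0.00408). Of 16 alternatives, the Stat4 call was lost in 2 and the Stat6 call in 4. None of the 7 passed between genotypes at day 3, where 2 had an unadjusted p under 0.05 (edgeR), beside 7.89% of all tested genes.

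The 4 other Socs genes did not follow Cish and Socs2. Socs4 and Socs5 fell in both genotypes, Socs4 from 88.4 ± 5.4 to 45.8 ± 0.58 CPM in WT (log2 change -0.95, adjusted p = 7.66e-10) and Socs5 from 25.4 ± 2.0 to 8.58 ± 2.0 (-1.56, adjusted p = 1.63e-08). Socs6 rose in Susd2-/- (0.30, adjusted p = 0.0128, edgeR), a call lost in 4 of 15 alternatives. It did not pass in WT (0.09, adjusted p = 0.423), and the test of the difference did not pass either (0.21, adjusted p = 0.394). By contrast, all 5 partners with which the SOCS box builds a ubiquitin ligase (Elob, Eloc, Cul5, Rnf7 and Ube2f) rose in both genotypes. Their median log2 changes were 0.89 and 1.17. Called higher among all tested genes were 36.2% in WT and 36.7% in Susd2-/-. Eloc went from 51.6 ± 0.81 to 129 ± 4.0 CPM in WT (1.32, adjusted p = 2.78e-12).

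Upstream, all 8 gamma-chain cytokine receptor genes changed with time in each genotype, 3 higher and 5 lower. A call between days was common, at 75.2% of all tested genes in WT and 76.4% in Susd2-/-. Il2ra, the high-affinity IL-2 receptor chain, went from 2.53 ± 0.35 to 982 ± 14 CPM in WT (log2 change 8.59, adjusted p = 2.16e-20), and Il2rb, the chain that carries Jak1, from 241 ± 2.4 to 839 ± 30 (1.80, adjusted p = 1.36e-15). Il7r fell from 612 ± 13 to 74.1 ± 3.0 CPM (-3.05, adjusted p = 2.22e-18), and Il2rg, the gamma chain that carries Jak3, from 246 ± 5.4 to 124 ± 0.051 (-0.99, adjusted p = 2.09e-11). At day 0, 5 of the 8 were higher in Susd2-/-, beside 11.5% of all tested genes. Il2rb was among them, at 362 ± 4.8 CPM (0.58, adjusted p = 1.05e-06, edgeR). None of the 8 was called at day 3, where none had an unadjusted p under 0.05. Of the 6 cytokines only 3 could be tested; Il2 itself stood at 0.425 to 1.97 CPM in WT day 3.

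Of 10 other negative regulators of the pathway, 5 rose and 4 fell in WT, and 4 rose and 4 fell in Susd2-/-. The shares of all tested genes were 36.2% higher and 39% lower in WT, and 36.7% and 39.7% in Susd2-/-. Ptpn1 and Ptpn11, a pair of tyrosine phosphatases, rose in both genotypes, Ptpn1 from 184 ± 8.7 to 365 ± 16 CPM in WT (0.99, adjusted p = 2.79e-11). Pias1, a SUMO ligase that restrains STAT proteins, fell from 73.4 ± 2.9 to 25.7 ± 2.1 CPM (-1.52, adjusted p = 3.45e-12). Of 15 other known STAT5 target genes, 12 rose and 2 fell in WT and 11 rose and 3 fell in Susd2-/-. These stand beside 36.2% of all tested genes higher and 39% lower in WT, and 36.7% and 39.7% in Susd2-/-. The median log2 changes of the 15 were 1.77 and 1.57. Gzmb, the granule protease, went from 25.4 ± 0.81 to 6296 ± 319 CPM in WT (7.95, adjusted p = 3.44e-19) and the survival gene Bcl2l1 from 17.1 ± 0.0080 to 173 ± 0.79 (3.34, adjusted p = 7.27e-18), whereas Id2 fell by 2.07 on the log2 scale (adjusted p = 5.17e-13) and Mcl1 by 0.72 (adjusted p = 2.25e-09). Between genotypes at day 0, 4 of the 15 were higher and 3 lower in Susd2-/-, beside 11.5% and 12.1% of all tested genes. None passed at day 3, where 7 had an unadjusted p under 0.05 (edgeR) beside the 7.89% of all genes.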

How the data were processed

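The deposited values are raw read counts per gene symbol, in 15 columns for 27019 genes; each column is 1 sequencing lane of poly(A)-selected, paired-end libraries made with a strand-keeping kit, per the labels. Tools listed without roles in the submitters' processing notes are Subread 2.0.1, SAMtools 1.10, HISAT2 2.1.0 and fastp 0.23.2, on GRCm38. Their annotation release, strand setting and treatment of multi-mapped reads: not given in the sources used here. Lanes were summed to 8 libraries (7 with 2 lanes, WT day 3 library 2 with 1), numbered as in the labels. filterByExpr kept 16057 genes, which hold at least 99.93% of each library's counts. They were fitted in 1 model of 4 group means with edgeR 4.0.16 in R 4.3.3 (TMM, robust quasi-likelihood F test, 4 residual degrees of freedom before moderation), and p-values were adjusted by Benjamini-Hochberg over all 16057 genes in each of 5 comparisons, with a threshold of 0.05. An interval is the log2 change with t limits of its SE, and the SE uses a spread estimate shared by all 4 groups. In all, 40 tests concern the 8 genes, 16 of them between genotypes. The fit was also run on counts simulated from its own means and dispersions, with known changes in the day 0 genotype comparison. The other comparisons were not checked in this way. Exon length is the union of GENCODE M21 exons.

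The 8 genes and the pathway and marker lists were chosen with earlier results of these data known. Of each pathway list, up to 2 genes per comparison and direction with the smallest adjusted p and an average log2 CPM of at least 1 could be named. Alternatives were DESeq2 1.42.0, limma 3.58.1 voom, RLE size factors, no filter on low counts, leaving out each library, first lanes alone, day 0 libraries of a group counted as 1, libraries of 1 day or genotype alone, and a block by library number. A fit without 1 library assumes that the lone library left varies like the other groups. The deviations of same-numbered libraries of the 2 genotypes correlated at 0.00859 at day 0 and -0.0104 at day 3 over 16057 genes. With 2 libraries a group the deviations mirror each other, so each day gives only 1 contrast. This cannot tell whether same-numbered libraries were handled together. Some results are not reported here.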

Additional observations from a re-analysis of the deposited data

Results flagged for a closer look

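None of the 8 genes had a genotype difference that changed between the days by the interaction test. Among the other genes named from the pathway lists, 13 that passed it are given here (edgeR quasi-likelihood test, adjusted over all 16057 genes). Genes were named for passing a test, at most 2 per list and direction, so their number is not a result. The test called 13.5% of all tested genes. It called 12 of the 14 immediate early and stress genes, all lower, of which Atf3 and Klf6 are given. The values are the log2 difference between Susd2-/- and WT at day 3 minus that at day 0. Among JAK and STAT genes it was 0.33 for Stat4 (adjusted p = 0.0437), -0.37 for Stat6 (0.00808) and -0.37 for Tyk2 (0.0136). Socs4 was at 0.45 (0.00779) and its ligase partner Eloc at 0.34 (0.0320). Among receptors, Il2rb was at -0.52 (0.000333) and Il4ra at -0.47 (0.00493), and the phosphatase gene Ptpn6 was at -0.52 (0.000489). Of STAT5 targets, Gzmb was at 0.65 (0.00217), Pim1 at -0.54 (0.00219) and Bcl2l1 at -0.42 (0.0103). The stress genes Atf3 (-3.34, adjusted p = 2.55e-09) and Klf6 (-1.44, 3.61e-09) lay farthest from 0. Stat4, Eloc and Tyk2 are the least stable of these, since each lost its call in 7 or more of its alternatives, Stat4 in 10.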

How the results depend on the processing

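The calls between days for Jak1, Stat5a, Cish, Socs2 and Socs3 held in both genotypes under all alternatives; of 616 alternative values of the 8 genes, 554 kept direction and call, 13 lost a call, 23 gained one and 26 changed sign. At day 0, 3792 genes differed between genotypes, against 725 with the day 0 libraries of a group counted as 1 and 2044 to 4410 without 1 library; of the 8 genes 1 was called, against 2 (voom), 0 (day 0 libraries counted as 1), 3 (that day alone) and 0 to 2 without 1 library. At day 3, 22 genes differed, against 59 (DESeq2), 138 (no filter), 1 (day 0 libraries counted as 1), 3 (that day alone) and 6 to 392 without 1 library, the highest without Susd2-/- library 1; of the 8 genes 0 were called, and 0 to 2 without 1 library. The interaction called 2164 genes, against 364 with day 0 libraries counted as 1 and 1176 to 2498 without 1 library, and 0 of the 8 genes, against 0 to 1. No value that changed sign passed the test. Stat5b at day 0 was 0.013 with DESeq2 and 0.015 with RLE, and with no filter Jak3 at day 3 was 0.0053 and Cish 0.022. Without 1 library, day 0 differences ran from -0.069 to 0.12 (Stat5a), -0.049 to 0.017 (Stat5b) and -0.072 to 0.18 (Cish), and day 3 differences from -0.13 to 0.095 (Jak3), -0.093 to 0.036 (Cish), -0.31 to 0.15 (Socs1) and -0.43 to 0.039 (Socs3). Likewise the change between days ran from -0.077 to 0.0086 (Stat5b, WT) and -0.16 to 0.021 (Jak3, Susd2-/-), and the interaction from -0.20 to 0.079 (Cish), -0.11 to 0.35 (Socs1), -1.01 to 0.096 (Socs2) and -0.14 to 0.34 (Socs3). With library number as a block, 3406 genes differed at day 0, 17 at day 3 and 1796 in the interaction, and Jak1 at day 0 kept its call (adjusted p = 0.0309); it changed no call between genotypes among the 8 genes. Depth limits Socs2 at day 0 most, with 16 to 40 reads a library. The causes of these differences were not tested.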
